A study of Mus musculus with 5 samples.

Results

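Zeb1, Zeb2, Snai1, Snai2, Twist1 and Twist2 are the 6 genes of the Zeb, Snail and Twist families of transcription factors that are best known for driving epithelial-mesenchymal transition. They were taken by name, with earlier results of these data known, and all 6 were found among the 24100 genes of the count table. Their RNA was compared between quiescent melanocyte stem cells (McSC), which hold no pigment and renew the pigment cells of the follicle at each hair cycle, and melanocytes taken while hair was growing. Zeb1 and Zeb2 were 11.7-fold and 5.83-fold lower in melanocytes, and Snai2 was 1.81-fold higher. Twist2 lay between 0.997 and 2.44 CPM (counts scaled to library size) in melanocytes and at most at 0.112 CPM in quiescent McSC; it was called higher too, but entered the test only through the melanocyte libraries. Snai1 and Twist1 did not pass.

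Zeb and Snail proteins are zinc-finger repressors that bind E-boxes, short DNA sites read as CACCTG on one strand and CAGGTG on the other, and recruit corepressors to genes of epithelial cells. Twist proteins are basic helix-loop-helix factors that pair with E proteins such as Tcf3, Tcf4 and Tcf12. Pigment cells come from the neural crest, where several of these factors act during emigration. In mice, loss of Zeb2 in the melanocyte lineage impairs melanoblast migration and differentiation, and loss of Snai2 leaves patches of skin without pigment. In human melanoma, ZEB2 and SNAI2 are known from more differentiated cells, and ZEB1 and TWIST1 from less differentiated ones.

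All cells were sorted from mouse back skin. The mice were males on a mixed CD1/C57Bl6J background that carried Dct-eGFP, a green reporter of the melanoblast gene Dct. Both gates took Dct-eGFP+ cells with medium to low integrin α6 that lacked CD31, CD45, CD140a, Sca1 and CD34. The 2 quiescent McSC libraries came from mice at postnatal days 60 and 62, in the resting phase (2nd telogen) of the hair cycle, each pooled from 4 males. The 3 melanocyte libraries came from mice at postnatal day 10, in the growth phase (full anagen), which also carried Lef1-RFP; these cells were gated as Lef1-RFP+ and c-Kit+ as well, and were pooled from 3, 2 and 4 males for replicates 1, 2 and 3. No agent is named for either group. The groups differ at once in age, in hair cycle stage, in the reporters carried and in the gate, and these cannot be told apart. In these bulk libraries, fewer cells of a type and less RNA per cell cannot be told apart either.

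Total counts were 67483295 and 124530834 in quiescent McSC and between 17512381 and 67275054 in melanocytes. Counts scaled per 1e6 of TMM-normalised library size (CPM) of 12 melanocyte lineage markers summed to 20393 and 21807 in quiescent McSC, and to 3186, 18693 and 20473 in melanocyte replicates 1 to 3, so melanocyte replicate 1 stood apart from the other libraries. Of the 12, 1 was called up and 4 down in melanocytes, and without melanocyte replicate 1 there were 7 higher in melanocytes. Of all tested genes, 29.1% were called higher in melanocytes and 26.2% lower, or 31.0% and 29.2% without that library. Fibroblast and dermal papilla markers, 16 genes, summed to 83.1 and 35.9 CPM in quiescent McSC. In melanocyte replicates 1 to 3 they summed to 6463, 2285 and 2126 CPM, and 14 of them were called higher in melanocytes. Fewer of them were called without quiescent McSC replicate 2, as among all tested genes. All 15 hair follicle markers were called higher too, with sums of 21.2 to 54.6 CPM in quiescent McSC and 4091 to 6397 CPM in melanocytes; Krt34 had no count in quiescent McSC. Higher or lower in melanocytes refers to the libraries, and Snai1, Twist1 and the paralog ratios are given with and without melanocyte replicate 1.

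The paralogs within a family have similar stretches of coding sequence, which bears on how their reads can be told apart. Between the transcripts compared, the longest run of identical bases was 23 in each pair. For Zeb1 and Zeb2, 129 of 150 bases were identical in the most similar coding window. The windows of 150 coding bases with the most identical bases in each pair are given here for Snai1 and Snai2, and for Twist1 and Twist2, from the GENCODE M21 annotation of GRCm38, with positions counted from 1 at the start of the coding sequence. Capitals mark bases that are the same in both members of a pair.
Snai1, coding bases 491 to 640: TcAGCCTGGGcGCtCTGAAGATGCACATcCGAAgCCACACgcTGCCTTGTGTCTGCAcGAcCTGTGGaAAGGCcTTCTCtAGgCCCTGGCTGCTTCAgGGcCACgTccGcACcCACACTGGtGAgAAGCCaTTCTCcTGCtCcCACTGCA
Snai2, coding bases 509 to 658: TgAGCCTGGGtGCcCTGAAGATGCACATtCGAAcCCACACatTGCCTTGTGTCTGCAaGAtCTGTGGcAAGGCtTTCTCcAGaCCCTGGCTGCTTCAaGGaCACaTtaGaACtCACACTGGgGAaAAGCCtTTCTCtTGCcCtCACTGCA
Twist1, coding bases 347 to 496: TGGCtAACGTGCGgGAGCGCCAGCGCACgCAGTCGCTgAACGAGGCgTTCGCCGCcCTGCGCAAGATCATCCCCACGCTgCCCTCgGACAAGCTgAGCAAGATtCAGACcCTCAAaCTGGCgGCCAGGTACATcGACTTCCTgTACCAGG
Twist2, coding bases 209 to 358: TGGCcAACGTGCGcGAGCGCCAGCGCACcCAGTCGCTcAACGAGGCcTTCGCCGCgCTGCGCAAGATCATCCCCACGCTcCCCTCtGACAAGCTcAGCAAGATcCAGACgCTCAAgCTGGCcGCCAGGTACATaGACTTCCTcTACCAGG
In these windows 124 of 150 bases were identical between Snai1 and Snai2 (82.7%) and 135 of 150 between Twist1 and Twist2 (90.0%). The longest run of identical bases within them was 15 for the Snail pair and 23 for the Twist pair. How the authors' counting assigned reads that match both paralogs is not given in the sources used here.

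Zeb1 (chromosome 18, 5591327 to 5775468 on the plus strand of GRCm38.p6, Entrez 21417) encodes a repressor with zinc-finger clusters at either end. Its level was 86.2 and 100.2 CPM in quiescent McSC (5373 and 11227 counts) and 6.61, 7.93 and 9.57 CPM in melanocyte replicates 1 to 3 (268, 541 and 179 counts). Both quiescent McSC libraries lay about an order of magnitude above every melanocyte library, and the groups did not overlap. The means were 93.2 ± 9.93 CPM (SD, n = 2) and 8.04 ± 1.48 CPM (SD, n = 3). The log2 fold change, melanocyte minus quiescent McSC, was -3.54 ± 0.18 (SE), with a 95% interval of -3.99 to -3.10 and an adjusted p of 7.17e-05 by edgeR's quasi-likelihood test with Benjamini-Hochberg adjustment over 16953 tested genes. Gm10125, a gene on the opposite strand that shares 198 exonic bases with Zeb1, lay at 11.3 and 12.1 CPM in quiescent McSC and between 5.88 and 7.70 CPM in melanocytes; the library kit does not mark strand, so reads from the shared bases cannot be assigned.

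Zeb2 (chromosome 2, 44983512 to 45117442, minus strand, Entrez 24136) encodes the related zinc-finger factor that pigment cells use during their development. Quiescent McSC replicates 1 and 2 held 395.9 and 372.0 CPM (24680 and 41672 counts), and melanocyte replicates 1 to 3 held 73.8, 62.1 and 61.6 CPM (2993, 4232 and 1153 counts). Zeb2 was thus the member with the highest CPM in every library, and again the groups lay apart. Its mean was 384 ± 16.9 CPM (SD, n = 2) against 65.8 ± 6.91 CPM (SD, n = 3), with a log2 fold change of -2.54 ± 0.13 (95% interval -2.86 to -2.23, adjusted p = 7.01e-05). The antisense gene Zeb2os shares 653 of the 19942 exonic bases of Zeb2 and had between 1.11 and 3.66 CPM in the 5 libraries. For both Zeb genes, melanocyte replicate 1 lay close to the other melanocyte libraries, and the log2 fold changes without it stayed within -3.67 to -3.42 for Zeb1 and -2.63 to -2.49 for Zeb2, the ranges over all left-out libraries.

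Snai2 (Slug; chromosome 16, 14705852 to 14709395, plus strand, Entrez 20583) moved the other way. It was measured at 25.8 and 26.4 CPM in quiescent McSC (1611 and 2960 counts) and at 45.4, 55.1 and 41.0 CPM in melanocyte replicates 1 to 3 (1841, 3758 and 767 counts). Every melanocyte library lay above both quiescent McSC libraries. The means were 26.1 ± 0.413 CPM (SD, n = 2) and 47.2 ± 7.21 CPM (SD, n = 3). The log2 fold change was 0.85 ± 0.16 (95% interval 0.47 to 1.24, adjusted p = 0.00507), a smaller change than those of the Zeb genes. Levels of Snai2 in melanocyte replicate 1 lay between those of the other melanocyte libraries.

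Snai1 (Snail; chromosome 2, 167538195 to 167542814, plus strand, Entrez 20613) was low in both populations. It reached 4.17 and 2.92 CPM in quiescent McSC (260 and 327 counts), 3.67 CPM in melanocyte replicate 1 (149 counts), and 0.968 and 0.962 CPM in melanocyte replicates 2 and 3 (66 and 18 counts). Melanocyte replicate 1 lay between the quiescent McSC libraries, so the groups overlapped. The means were 3.55 ± 0.885 CPM (SD, n = 2) and 1.87 ± 1.56 CPM (SD, n = 3). The log2 fold change was -0.91 ± 0.65 (95% interval -2.51 to 0.68, adjusted p = 0.278), which does not pass the test. Without melanocyte replicate 1, the library with the low lineage and high fibroblast marker sums, the log2 fold change was -1.87 ± 0.37 and passed it (adjusted p = 0.00403). The part of other cells in that library's Snai1 level was not tested.

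Twist1 (chromosome 12, 33957671 to 33959831, plus strand, Entrez 22160), a helix-loop-helix factor of neural crest and mesenchyme, followed the same library. It had 1.64 and 0.714 CPM in quiescent McSC (102 and 80 counts), 8.76 CPM in melanocyte replicate 1 (355 counts), and 1.41 and 2.14 CPM in melanocyte replicates 2 and 3 (96 and 40 counts). Melanocyte replicate 2 lay between the quiescent McSC libraries, and the means were 1.18 ± 0.652 CPM (SD, n = 2) and 4.10 ± 4.05 CPM (SD, n = 3). The log2 fold change was 1.82 ± 0.90 (95% interval -0.38 to 4.01, adjusted p = 0.133), and without melanocyte replicate 1 it was 0.58 (adjusted p = 0.359). The share of fibroblast-derived RNA in these Twist1 counts was not tested.

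Twist2 (Dermo1; chromosome 1, 91801461 to 91848034, plus strand, Entrez 13345) is a close paralog of Twist1 known from dermal cells. Quiescent McSC libraries held 7 and 5 counts of it, or 0.112 and 0.0446 CPM, with exact Poisson 95% intervals of 0.0451 to 0.231 and 0.0145 to 0.104 CPM that cover counting error only. Melanocyte replicates 1 to 3 held 99, 68 and 32 counts, or 2.44, 0.997 and 1.71 CPM. All melanocyte libraries lay above the upper interval bounds in quiescent McSC, although the gene was low in both groups. The means were 0.0785 ± 0.0478 CPM (SD, n = 2) and 1.72 ± 0.722 CPM (SD, n = 3), and the log2 fold change was 4.49 ± 0.70 (95% interval 2.79 to 6.19, adjusted p = 0.0026). Twist2 passed the expression filter only through the melanocyte libraries, being above the cutoff of 0.149 CPM in 3 of these and in 0 of the quiescent McSC libraries, so it had to differ between the groups to be tested at all. Its value rests on few quiescent McSC counts: without quiescent McSC replicate 1 the log2 fold change was 5.19, and without replicate 2 it was 3.90. The fibroblast and dermal papilla marker sums given above rose in the same libraries, and their part in the Twist2 level was not tested. Gm29100, an antisense gene not analysed here, shares 1477 of the 3174 exonic bases of Twist2.

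**Figure D1:**
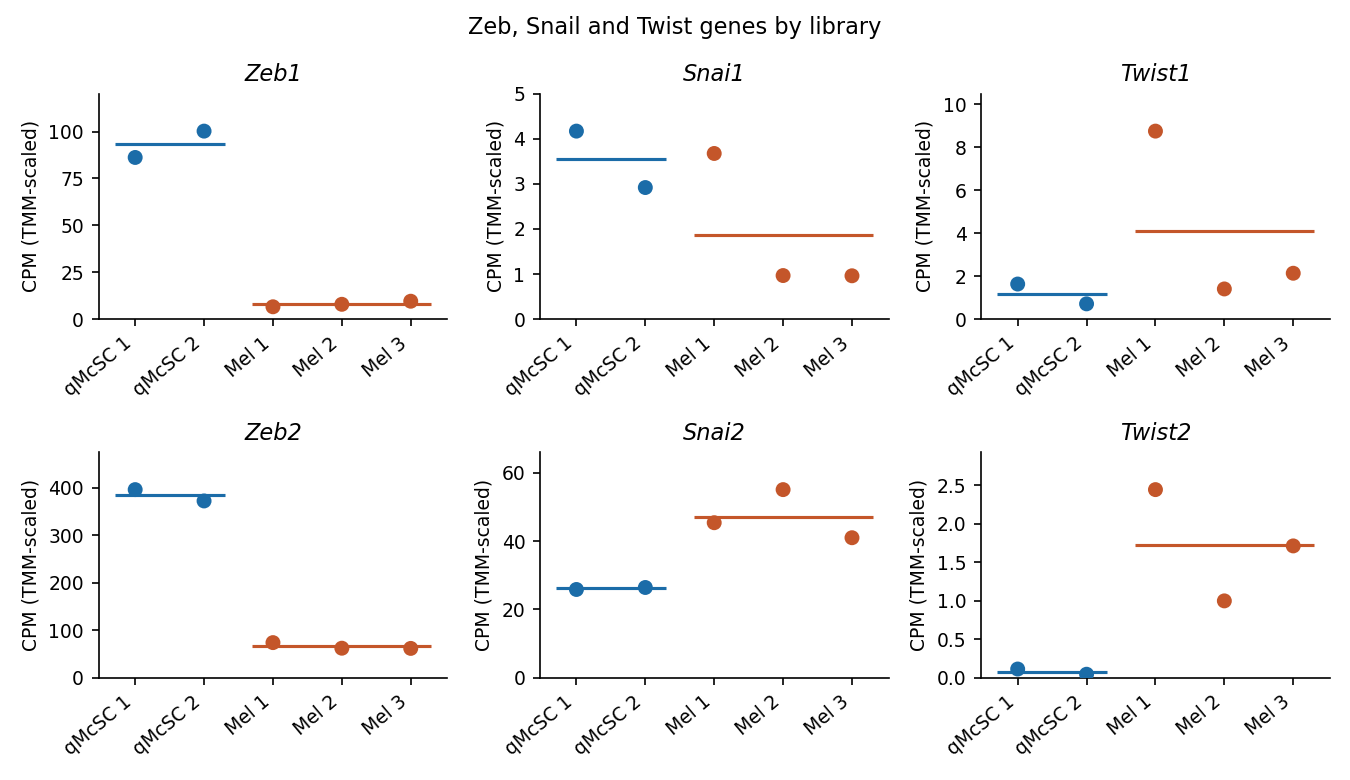
Level of each of the 6 genes in every library, in CPM on linear axes that start at 0; each point is 1 library (2 quiescent McSC in blue, 3 melanocyte in orange) and horizontal lines are group means. Zeb1 and Zeb2 were higher in both quiescent McSC libraries, Snai2 and Twist2 in all 3 melanocyte libraries, and Snai1 and Twist1 overlapped between the groups.

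Across the whole table, 55.4% of the 16953 tested genes were called, 29.1% as higher in melanocytes and 26.2% as lower there. Of the 6 members, 4 were called, 2 in each direction, and Twist2 entered this test only through the melanocyte libraries. The share of calls is near the background and is no result about the family as a group. The groups did not overlap for the same 4 members, against 74.5% of all tested genes (38.1% with melanocytes higher and 36.4% with quiescent McSC higher). The summed level of the 6 genes was 513.8 and 502.4 CPM in quiescent McSC and 140.7, 128.5 and 117.0 CPM in melanocyte replicates 1 to 3, and the Zeb genes made up most of the sum in quiescent McSC. The median log2 fold change over all tested genes was 0.03, and 0.26 when libraries were scaled by their totals only. That scaling left 6064 genes called up and 3456 called down in melanocytes, against 4937 and 4448 with TMM, and the 4 called members kept their directions.

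**Figure D2:**
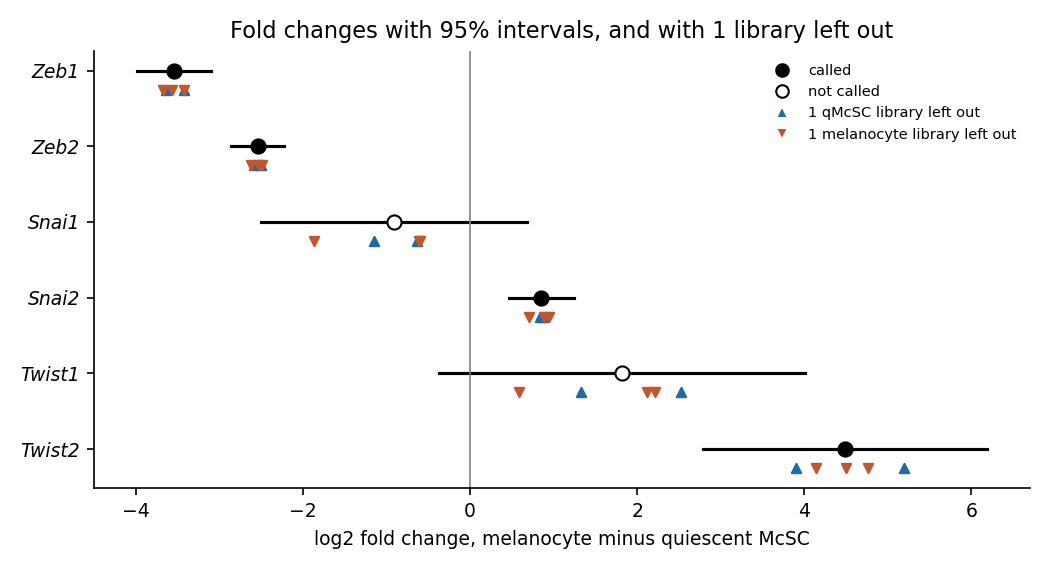
Log2 fold change of each gene, melanocyte minus quiescent McSC, with its 95% interval from edgeR's quasi-likelihood fit; filled circles passed the test, and triangles are the fits that leave out 1 library each. The intervals of Zeb1, Zeb2, Snai2 and Twist2 lay clear of 0, where Twist2 was tested only through its melanocyte libraries, and those of Snai1 and Twist1 crossed it.

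Levels of different genes were compared per length, as CPM per kilobase of each gene's longest coding transcript. In quiescent McSC the order was Zeb2 (42.1 ± 1.85 per kilobase), Zeb1 (16.1 ± 1.71), Snai2 (12.9 ± 0.204), Snai1 (2.19 ± 0.546), Twist1 (0.722 ± 0.400) and Twist2 (0.0311 ± 0.0189), each as mean ± SD of 2 libraries. In melanocytes Snai2 led at 23.3 ± 3.57 per kilobase, followed by Zeb2 at 7.22 ± 0.758, each as mean ± SD of 3 libraries. The remaining 4 genes were low there: Twist1 at 2.52 ± 2.49, Zeb1 at 1.39 ± 0.256, Snai1 at 1.15 ± 0.965 and Twist2 at 0.680 ± 0.286 per kilobase. Among these, neighbours in the order did not differ beyond their spread. Twist1 led them only through melanocyte replicate 1, at 5.38 per kilobase. In melanocyte replicates 2 and 3 it was at 0.865 and 1.31, below Zeb1 at 1.37 and 1.65. Snai1 was at 2.27 per kilobase in melanocyte replicate 1, and at 0.597 and 0.594 in replicates 2 and 3. Zeb2 was thus the leading member per length in quiescent McSC, and Snai2 in melanocytes. Scaled by the union of all exons instead, Zeb1 (9.08) fell below Snai2 (12.9) in quiescent McSC, so the order of that pair depends on the transcript length assumed.

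The balance within each family was described by the log2 ratio of the paralogs in each library, not corrected for length. Zeb2 over Zeb1 was 2.20 and 1.89 in quiescent McSC and 3.48, 2.97 and 2.68 in melanocyte replicates 1 to 3. Zeb2 was the more abundant in CPM in all 5 libraries, and its lead was 2.00-fold wider in melanocytes (1.72-fold without melanocyte replicate 1). Snai2 over Snai1 was 2.63 and 3.18 in quiescent McSC against 3.62, 5.82 and 5.37, a 4.10-fold wider ratio. The smallest ratio among melanocytes was that of replicate 1, where Snai1 was high, and without that library the ratio was 6.48-fold wider. Twist2 over Twist1 was -3.77 and -3.87 in quiescent McSC against -1.84, -0.49 and -0.32 in melanocytes, a 7.67-fold difference (10.7-fold without melanocyte replicate 1). With counts thinned to the shallowest library this difference was 3.45-fold, and it rests on 7 and 5 counts of Twist2 in quiescent McSC. None of the 3 ratios overlapped between the groups. With 2 against 3 libraries, the two-sided exact permutation test gave p = 0.2 for each, the smallest it can give, and 0.2 after adjustment over the 3 pairs.

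**Figure D3:**
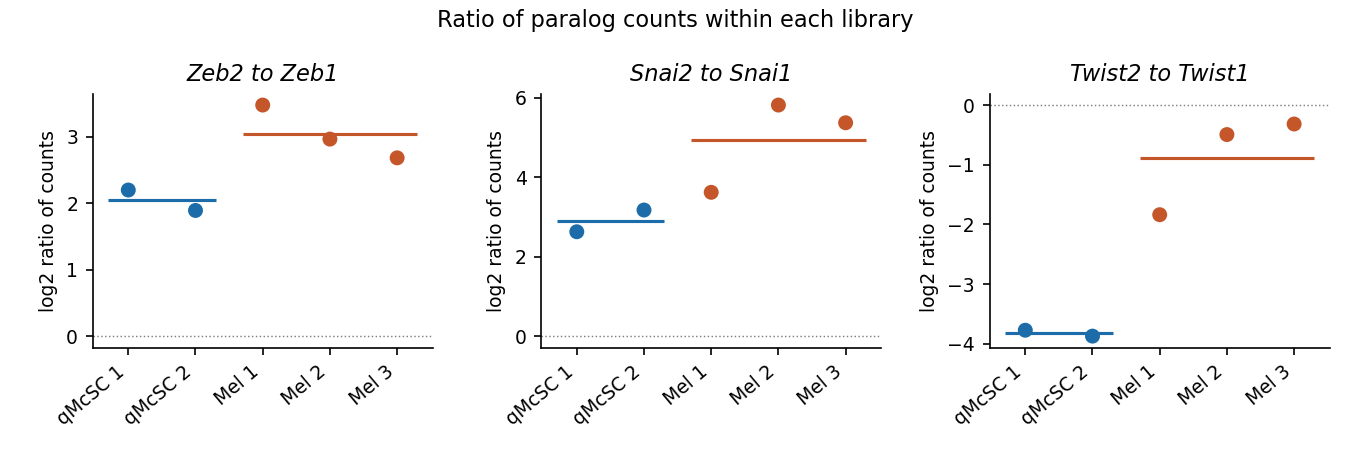
Log2 ratio of the paralogs within each family, per library; points are libraries, solid lines are group means and the dotted line marks equal counts. The ratios Zeb2 to Zeb1, Snai2 to Snai1 and Twist2 to Twist1 were each higher in all 3 melanocyte libraries than in both quiescent McSC libraries.

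Cell type markers were set beside the members by library. Their counts of calls stand beside 29.1% of all tested genes called higher in melanocytes and 26.2% called lower. Melanocyte replicate 1 had the lowest sum of melanocyte lineage markers and the highest fibroblast sum, and also the highest Twist1 and Twist2 levels of all libraries and the highest Snai1 level among melanocytes. Muscle and pericyte markers, 11 genes, summed to 98.6 and 96.6 CPM in quiescent McSC and to between 195.0 and 411.7 CPM in melanocytes, with 10 called higher there. Endothelial markers, 10 genes of which Cldn5 had no count in quiescent McSC, rose from at most 13.0 CPM to between 37.3 and 70.8 CPM, and 9 were called higher. The 15 immune markers summed to at most 36.2 CPM in quiescent McSC and at most 114.4 CPM in melanocytes, with 10 called higher. Schwann cell markers, 10 genes, summed to 872 and 1107 CPM in quiescent McSC and to between 215 and 291 CPM in melanocytes, with 4 called in each direction (2 higher in melanocytes without melanocyte replicate 2). Keratinocyte markers, 14 genes, summed to between 3514 and 5553 CPM in all libraries, with 7 called up and 6 called down in melanocytes. Some of the markers called higher passed the filter only through the melanocyte libraries, namely 3 endothelial, 3 hair follicle, 2 fibroblast, 2 immune and 1 muscle marker. The part of these cells in the members' levels was not tested.

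**Figure D4:**
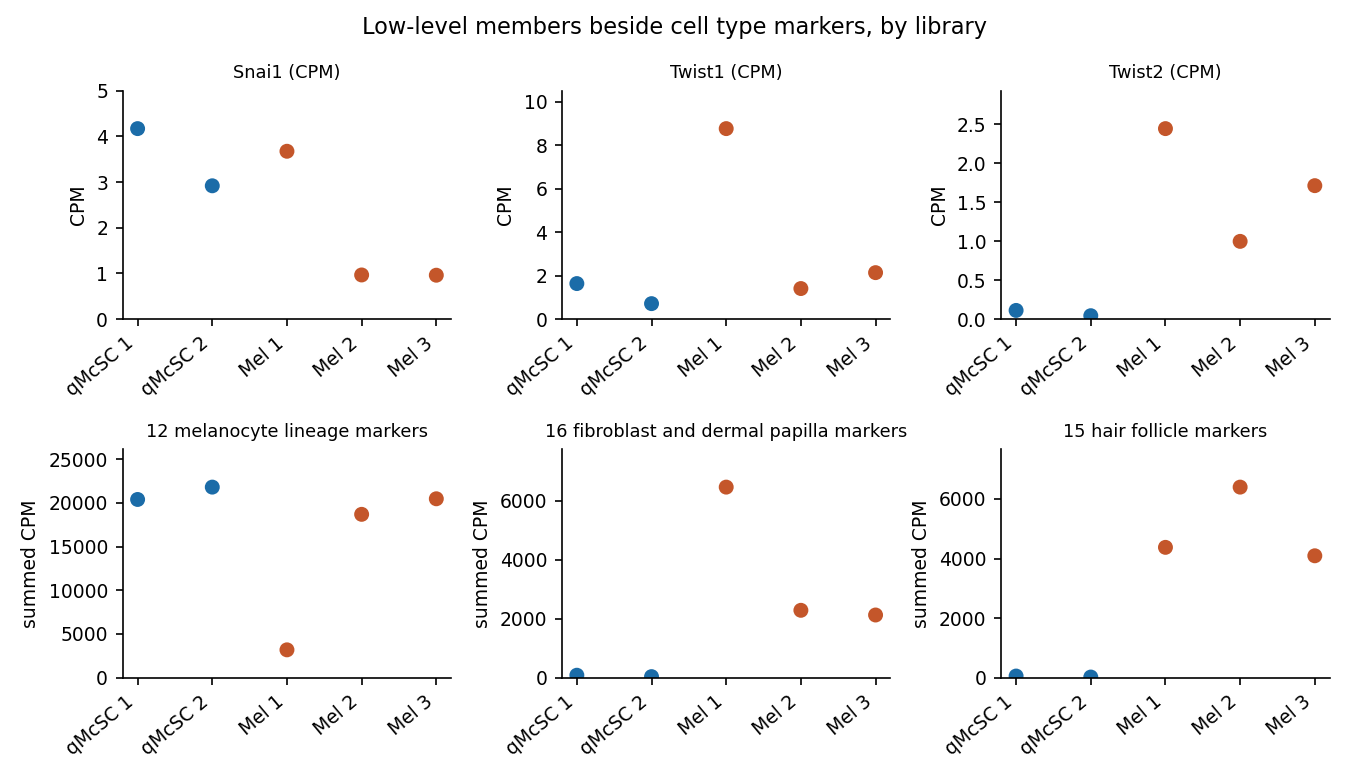
Levels of Snai1, Twist1 and Twist2 (top) beside the summed levels of 12 melanocyte lineage, 16 fibroblast and dermal papilla and 15 hair follicle markers (bottom), in CPM on linear axes; each point is 1 library. Melanocyte replicate 1 combined a melanocyte lineage sum of 3186 CPM with a fibroblast and dermal papilla sum of 6463 CPM.

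Genes whose profile over the 5 libraries was nearest to that of each member were taken as the tested genes of at least 5 CPM with the smallest root mean square difference in centred log2 CPM. For Zeb1 these were Plekho2 (0.0345), Tcp11l2 (0.0876) and Cryzl2 (0.0928), and for Zeb2 they were Pmp22 (0.0675), Sulf2 (0.0849) and Phka1 (0.0863). Those of Snai2 were Pgap2 (0.0318), Tmem14c (0.0478) and Asb8 (0.0505). Snai1 was matched less closely, by Parp8 (0.178), Arhgef25 (0.259) and Rgs2 (0.281). Parp8, for example, lay at 11.3 and 10.98 CPM in quiescent McSC and at 12.4, 3.81 and 3.37 CPM in melanocyte replicates 1 to 3, with the same high melanocyte library as Snai1. Twist1 was nearest to Nfatc4 (0.280), Cacna1g (0.300) and Vcan (0.317), and Twist2 to Usp43 (0.203), Msi1 (0.218) and C1s1 (0.227). Between members, the difference was 0.558 for Zeb1 and Zeb2 and 3.72 for Zeb1 and Twist2.

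Among 10 related Snail, Twist-like and helix-loop-helix genes, 4 passed the expression filter, of which Tcf15 and Hand2 did so only through melanocyte libraries, so no count of calls is read from this list. Snai3, the remaining Snail paralog, was at 0.674 and 0.312 CPM in quiescent McSC and at 9.62, 10.7 and 5.40 CPM in melanocyte replicates 1 to 3. Its levels did not overlap, and the log2 fold change was 4.14 ± 0.53 (adjusted p = 0.00125), or 4.77 without quiescent McSC replicate 1. Tcf15, a helix-loop-helix factor of somites, had no count in quiescent McSC and 5, 12 and 6 counts in melanocytes, at least 10.5-fold higher against a floor of 3 counts over the quiescent McSC libraries. Hand2, a heart and limb factor (adjusted p = 0.0783), and Scx, a tendon factor (adjusted p = 0.473), did not pass. Tcf21 and Ferd3l had no count in any library.

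The E proteins that pair with Twist factors were all called, 1 of 3 as higher in melanocytes and 2 as lower. Of all tested genes, 55.4% were called, so a count of 3 genes is no result about the list. Tcf3 was at 66.3 and 77.7 CPM in quiescent McSC and between 131 and 177 CPM in melanocytes, a log2 fold change of 1.14 ± 0.17 (adjusted p = 0.00214). Tcf4 fell by 0.80 ± 0.11 on the log2 scale, from 194 and 184 CPM to between 101 and 118 CPM (adjusted p = 0.0018). Tcf12 fell by 0.86 ± 0.15, from 326 and 294 CPM to between 148 and 190 CPM (adjusted p = 0.00364). The median over the list was -0.80, beside 0.03 over all tested genes.

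Of 27 corepressor and cofactor genes, all tested, 16 were higher in melanocytes, 4 higher in quiescent McSC and 7 not called. Their median log2 fold change was 0.64. Shares over all tested genes were 29.1% and 26.2% in these directions. The 4 higher in quiescent McSC were 2 without melanocyte replicate 3, where 23.7% of all tested genes were called in that direction. Fewer were also called without quiescent McSC replicate 2, as among all tested genes. Ajuba, a LIM protein that bridges Snail to its corepressors, was at 13.3 and 18.9 CPM in quiescent McSC and between 124 and 134 CPM in melanocytes, a log2 fold change of 3.01 ± 0.18 (adjusted p = 0.000105). Smarca4, the ATPase of a chromatin remodelling complex that binds Zeb1, rose by 1.26 on the log2 scale, and Suz12, a Polycomb subunit, by 1.08. Kat2b, an acetyltransferase that acts with Zeb factors as a coactivator, fell by 1.40. Ctbp1, the classical Zeb corepressor, had a log2 fold change of 0.05 and was not called.

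Of 22 genes that act on the stability of Snail, Twist or Zeb proteins, 21 were tested, with 4 higher in melanocytes, 12 higher in quiescent McSC, 5 not called and a median of -0.51. The shares over all tested genes were 29.1% and 26.2% in these directions. The 4 higher in melanocytes were 2 without melanocyte replicate 2, where 25.6% of all tested genes were called in that direction. Fewer were also called without quiescent McSC replicate 1 or 2, as among all tested genes. Usp27x, a deubiquitinase that stabilises Snail, was at 44.5 and 48.8 CPM in quiescent McSC and between 2.93 and 3.53 CPM in melanocytes, a log2 fold change of -3.87 ± 0.16 (adjusted p = 4.5e-05). Siah2, a ubiquitin ligase, fell by 3.07 and Trim21, another ligase, by 2.73 on the log2 scale. Lats2, a Hippo pathway kinase that phosphorylates Snail, fell by 1.96. Gsk3b, the kinase that marks Snail for degradation, was not called. Genes that stabilise and genes that destabilise these proteins were thus both among those that fell.

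Epithelial factors that oppose the family, a list of 11 genes of which 10 were tested, were called higher in melanocytes in 8 cases and lower in none, with a median log2 fold change of 2.19. Over all tested genes, 29.1% were called higher in melanocytes and 26.2% lower. Esrp1, an epithelial splicing factor, was at 40.9 and 35.6 CPM in quiescent McSC and between 242 and 290 CPM in melanocytes, a log2 fold change of 2.82 ± 0.15 (adjusted p = 7.44e-05). Its paralog Esrp2 rose by 2.67, and Grhl1 and Grhl2, grainyhead-like factors of epithelia, by 2.95 and 2.45 on the log2 scale. The hair follicle markers of the melanocyte libraries moved with these genes, and their part was not tested. The genes of the miR-200 family and of miR-205 and miR-203, which repress Zeb and Snail messages, gave at most 3 counts in any library and were not tested. Mir200a, Mir200b, Mir429, Mir200c and Mir141 had no count in any, but messenger RNA libraries do not measure mature miRNAs.

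Of 30 epithelial genes known as targets of repression by the family, 29 were tested, with a median log2 fold change of 1.27. Of these, 19 were higher in melanocytes, 4 higher in quiescent McSC and 6 not called. These calls, and those of the keratinocyte markers below, stand beside 29.1% and 26.2% of all tested genes in these directions. Krt19, 1 of the 19, passed the filter only through the melanocyte libraries. St14, a membrane protease of epithelia, was at 18.9 and 16.9 CPM in quiescent McSC and between 279 and 308 CPM in melanocytes, a log2 fold change of 4.03 ± 0.14. Ap1m2, an epithelial sorting adaptor, was at 8.004 and 8.72 CPM against 67.5 to 85.5 CPM, a log2 fold change of 3.23 ± 0.16. Spint1, a protease inhibitor, rose by 3.21. The 4 genes higher in quiescent McSC, of which all but Mpp5 are named here after their values were seen, were Mpp5 (-2.02), a polarity protein, the cadherins Cdh1 (-1.14) and Cdh3 (-1.54), and the mucin Muc1 (-5.13, or -5.92 without melanocyte replicate 1). Cdh1, encoding E-cadherin and the best known target of the family, lay at 280 and 254 CPM in quiescent McSC, where Zeb1 and Zeb2 were high, and at 129, 125 and 108 CPM in melanocyte replicates 1 to 3. The hair follicle marker sums, higher in every melanocyte library, moved with the 19 genes. Of the 14 keratinocyte markers, 7 were called higher in melanocytes and 1 was not called, and the list median log2 fold change was 0.23. The other 6 moved with the 4 genes that were higher in quiescent McSC. They are named here after their values were seen: Krt10 lay at 657 and 1261 CPM in quiescent McSC against 14.3 to 70.5 CPM in melanocytes, and Krt1, Krtdap, Lor, Krt15 and Krt79 were 20.6-fold, 32.3-fold, 8.36-fold, 3.91-fold and 4.36-fold higher in quiescent McSC. Without melanocyte replicate 1, the log2 fold changes of Krt10, Krt1, Krtdap and Krt79 were -5.24, -5.57, -6.55 and -3.14, against -4.56, -4.36, -5.01 and -2.12 with it. Lor (log2 fold change -3.06) was -3.73 without melanocyte replicate 3, -3.67 without quiescent McSC replicate 1, and -1.95 and no longer called without quiescent McSC replicate 2. Krt79 was no longer called when any library other than melanocyte replicate 1 was left out. The part of follicle and epidermal cells in either group of genes was not tested.

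The E-box CACCTG or CAGGTG was counted on both strands in RefSeq promoter windows of GRCm38.p6, from 250 bases before to 50 bases after a gene's start. Among all windows, 20.2% (6640 of 32851) held at least 1. Among those of the epithelial targets, 20 of 26 windows did (76.9%), which belonged to 17 of the 20 genes with a window. Windows of 1 gene can overlap, as those of Crb3 do, and 10 genes of the list, Cdh1 among them, had no window here. The genes were listed as known targets of factors that bind this motif. A share above that of all windows could follow from that choice and is no test. Ap1m2, Crb3 and Lsr held 4 each, the highest number in the list, and their windows are shown for that reason with each E-box in capitals.
Ap1m2, chr9:21312284-21312583, minus strand: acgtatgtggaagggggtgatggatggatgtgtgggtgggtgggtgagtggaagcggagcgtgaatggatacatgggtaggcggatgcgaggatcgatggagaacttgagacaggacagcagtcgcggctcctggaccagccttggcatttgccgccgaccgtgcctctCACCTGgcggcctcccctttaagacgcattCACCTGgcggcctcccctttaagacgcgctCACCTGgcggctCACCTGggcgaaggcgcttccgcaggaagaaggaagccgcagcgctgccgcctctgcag
Crb3, chr17:57061951-57062250, plus strand: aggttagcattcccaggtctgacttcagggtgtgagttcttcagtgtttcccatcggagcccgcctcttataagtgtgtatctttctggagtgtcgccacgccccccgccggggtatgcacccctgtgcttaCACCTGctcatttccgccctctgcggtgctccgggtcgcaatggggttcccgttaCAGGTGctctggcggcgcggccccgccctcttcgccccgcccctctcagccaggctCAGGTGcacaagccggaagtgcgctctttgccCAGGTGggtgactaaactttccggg
Lsr, chr7:30973420-30973719, minus strand: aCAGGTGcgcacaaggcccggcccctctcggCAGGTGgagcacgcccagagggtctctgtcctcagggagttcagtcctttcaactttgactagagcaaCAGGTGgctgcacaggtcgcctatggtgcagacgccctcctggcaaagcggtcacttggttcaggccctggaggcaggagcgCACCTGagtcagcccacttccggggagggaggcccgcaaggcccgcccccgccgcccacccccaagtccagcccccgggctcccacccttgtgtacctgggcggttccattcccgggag
Crb3, a polarity protein, was at 3.03 and 3.59 CPM in quiescent McSC and between 7.57 and 8.55 CPM in melanocytes (adjusted p = 0.00481), and Lsr, a tricellular junction receptor, was at 15.1 and 22.3 CPM against 68.0 to 71.8 CPM (adjusted p = 0.000505). Of the 17 genes with an E-box, 10 were higher in melanocytes, 1 (Muc1) was higher in quiescent McSC, 5 were not called and 1 was not tested. The 3 genes without one were all called higher in melanocytes, as were 29.1% of all tested genes. A match to the motif describes the letters of the window and shows no binding.

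Among the members themselves, windows were at hand for Zeb2, Snai1, Twist1 and Twist2. The motif was found in 1 of 7 windows, that of Snai1, where it begins 126 bases before the start, and the 4 Zeb2 windows held none. The Snai1 window is shown because human SNAI1 is known to bind its own promoter, with the E-box in capitals.
Snai1, chr2:167537945-167538244, plus strand: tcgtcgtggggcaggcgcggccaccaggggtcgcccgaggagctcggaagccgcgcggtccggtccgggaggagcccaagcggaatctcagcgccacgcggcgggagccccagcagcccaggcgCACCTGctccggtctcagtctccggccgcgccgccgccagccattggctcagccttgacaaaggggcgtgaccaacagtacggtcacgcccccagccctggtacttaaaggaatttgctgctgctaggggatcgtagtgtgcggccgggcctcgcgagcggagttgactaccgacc
The Snai1 level overlapped between the groups, as given above.

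Of 25 mesenchymal genes, all tested, 15 were higher in melanocytes, 6 were higher in quiescent McSC and 4 were not called. Their median log2 fold change was 2.00. Over all tested genes, 29.1% were called higher in melanocytes and 26.2% lower. Fewer of the 25 were called higher in melanocytes without quiescent McSC replicate 1, as among all tested genes. Sparc, a matrix glycoprotein, was at 33.7 and 26.4 CPM in quiescent McSC and between 549 and 645 CPM in melanocytes, a log2 fold change of 4.29. Acta2 (7.51) and Tagln (3.26), actin cytoskeleton genes of muscle and myofibroblasts, rose as well. Vim, encoding vimentin, fell by 4.78 ± 0.34 on the log2 scale, from 4421 and 4482 CPM to 231, 136 and 120 CPM in melanocyte replicates 1 to 3. Cdh2, encoding N-cadherin and named here after its values were seen, was at 64.6 and 71.0 CPM against 4.74 to 8.77 CPM (log2 fold change -3.22). Genes of mesenchymal cells therefore changed in both directions, and the fibroblast and muscle marker sums were higher in all melanocyte libraries, whose part in the 15 was not tested.

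Of 11 melanocyte genes linked to the family, 2 were higher in melanocytes, 4 higher in quiescent McSC and 5 not called. The share called is near the 55.4% of all tested genes and is no result about the list. Lef1 (log2 fold change 4.02), a Wnt effector whose reporter was part of the melanocyte gate, and Ngfr (2.92), a neurotrophin receptor, were the 2 that rose. Pax3, a regulator of Mitf, fell by 4.41 on the log2 scale, from 1189 and 1389 CPM to 25.01, 69.9 and 87.2 CPM in melanocyte replicates 1 to 3. Mitf, the main pigment cell regulator, fell by 3.45, from 1177 and 1033 CPM to 43.7, 120 and 139 CPM. The lowest level of both was that of melanocyte replicate 1. Without that library 6 genes of this list were higher in melanocytes, beside 31.0% of all tested genes.

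**Figure D5:**
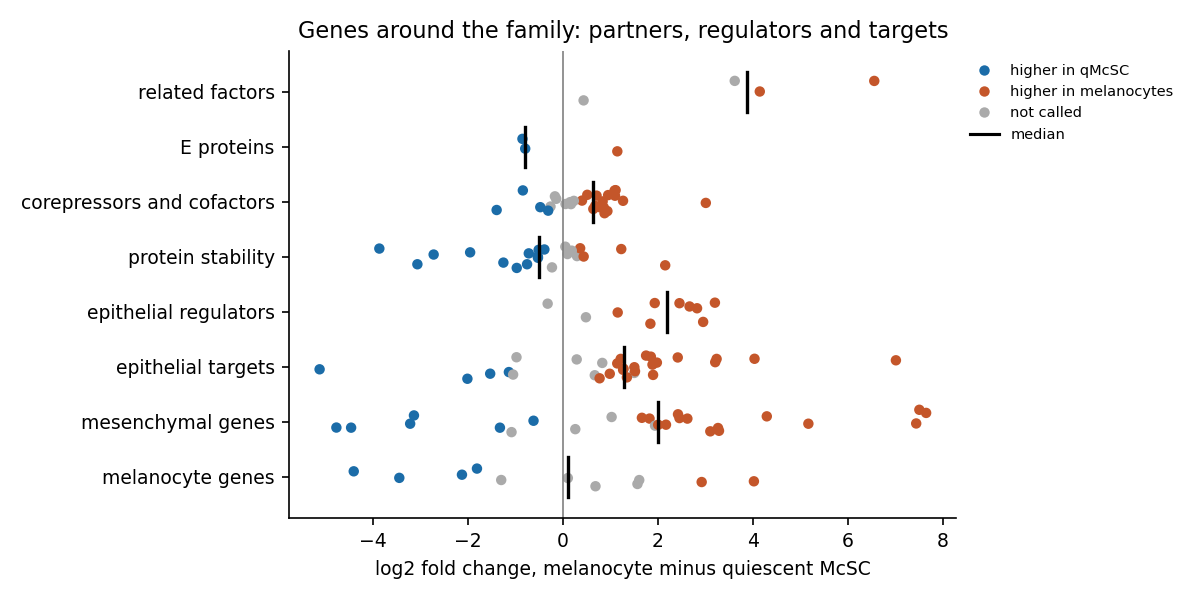
Log2 fold change, melanocyte minus quiescent McSC, of every tested gene in 8 lists of partners, regulators and targets of the family; colour gives the call at an adjusted p under 0.05 and black lines are list medians. Epithelial regulators had a median of 2.19 and no call lower in melanocytes, and the mesenchymal list had calls in both directions.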

How the data were processed

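RNA was measured by sequencing of messenger RNA libraries from sorted cells, 2 libraries of quiescent McSC and 3 of melanocytes, which the labels call biological replicates. The deposited table gives raw counts, whole numbers for each gene in each library, with no normalization and no pooling of libraries. The submitters' processing notes name the build mm10 and the tools STAR 2.5.2a and Salmon 0.8.2 but not what each was used for. Which of these counted reads per gene, on which annotation and how reads shared by paralogs were treated is not given in the sources used here. Of 24100 Entrez identifiers, 24045 matched a RefSeq symbol of GRCm38.p6, the same build. P-values measure the spread between these libraries, each a pool of mice.

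Genes were filtered with filterByExpr, scaled with TMM and tested with the two-sided quasi-likelihood test of edgeR 4.0.16 in R 4.3.3 over all 5 libraries, with no covariate. Benjamini-Hochberg adjustment ran over all 16953 tested genes, with a threshold of 0.05 for a call. The F statistic and the fold change gave each standard error (SE). The procedure was tested on simulated data. Intervals are at 95%. Those on counts cover counting error only, because without molecular identifiers several reads can stem from 1 molecule. Total counts differed by up to 7.11-fold between libraries, so genes of low level are measured least precisely in melanocyte replicate 3. The ratio of paralogs used counts with 0.5 added.

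The genes named are the 6 members, the 4 genes of smallest p in each list, and the 3 nearest profiles of each member; other names given were chosen after their values or motif counts were seen. The members and lists were chosen with earlier results of these data known. Lists are described by counts and medians, without a test of the list. Alternatives were other size factors, library size only, library size without the 20 most abundant genes, no filter, a filter of 5 CPM in 2 libraries, DESeq2 1.42.0, limma-voom (limma 3.58.1), robust dispersion, a replicate block, thinning to the shallowest library, and leaving out each library.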

Additional observations from a re-analysis of the deposited data

How the results depend on the processing

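Zeb1, Zeb2 and Snai2 kept their direction and their call under every alternative, and Twist2 under every one in which it was tested. The stricter filter removed Snai1, Twist1 and Twist2, so 1 member was then called higher in melanocytes. With 1 library left out, log2 fold changes ranged from -3.67 to -3.42 for Zeb1, -2.63 to -2.49 for Zeb2, -1.87 to -0.60 for Snai1, 0.70 to 0.95 for Snai2, 0.58 to 2.52 for Twist1 and 3.90 to 5.19 for Twist2. The adjusted p of Snai1 ranged from 0.00403 (without melanocyte replicate 1) to 0.603 and that of Snai2 reached 0.0417 (without quiescent McSC replicate 1). In fits with a lone quiescent McSC library, that library is assumed to vary like the melanocyte ones. Between 4 and 5 members were called with 1 melanocyte library left out, where 50.3% to 60.2% of all tested genes were called. Under the stricter filter 3 members were called, beside 63.9% of the genes tested there. Neither count is a result about the family as a group.

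Replicate numbers occur in both groups, and whether same-numbered libraries share a batch is not known. Deviations from the group mean of same-numbered libraries correlated at 0.04 for number 1 and -0.06 for number 2. With 2 quiescent McSC libraries, the deviations of 1 mirror those of the other. The 2 values are therefore not separate checks and cannot settle the question. With a replicate block, Twist1 had a log2 fold change of 1.71 and passed the test (adjusted p = 0.0497). That setting called 5 members, and 7412 genes in all, or 43.7% of those tested. Scx, which was not called, changed sign with the replicate block (-0.0932); with 1 library left out it ranged from -0.0938 (without melanocyte replicate 3) to 0.629 (without melanocyte replicate 1). The cause was not tested in any of these cases. Depth limits Twist2, which had 5 to 7 counts in quiescent McSC, and Snai1, which had 18 in melanocyte replicate 3.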
